A study of Homo sapiens with 18 samples.

Results

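The genes described here are 10 interferon-stimulated antiviral effectors, MX1, MX2, RSAD2, BST2, IFI44, IFI44L, IFITM1, IFITM2, IFITM3 and IFI35. They were chosen by symbol and not by a cut on their values, but with earlier results of these data known. All 10 were found among the 35933 genes with values in the deposited table of normalized read counts. RNA sequencing covered 18 libraries of the MCF10 breast cancer progression model, 3 replicates (a, b and c) in each of 6 groups, to compare the effect of targeting METTL3, the main m6A RNA methyltransferase, between stages of progression. MCF10A is a spontaneously immortalized breast epithelial line, MCF10AT1 was made from it with a mutated HRas, and MCF10CA1h came from MCF10AT1 through serial growth in mice as xenografts. In each line a control, which had received the negative CRISPR construct, was compared with a METTL3 CRISPR line, which had received a guide to METTL3 exon 1. Both arms had been transfected with Cas9, sorted and grown from single cells, and all were kept in medium with horse serum, insulin, hydrocortisone, cholera toxin and epidermal growth factor. For each cell line, 1 negative line was compared with 1 METTL3 CRISPR line, so that differences between clones and effects of the CRISPR target cannot be told apart, and the p-values measure only the spread between libraries of the same line.

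Interferons are secreted when a cell senses foreign nucleic acid, and they act through cell surface receptors, JAK kinases and a transcription factor complex that holds STAT2 and IRF9 and binds the interferon-stimulated response element near the start of its target genes. The effectors made from these genes act at different steps of a viral cycle. IFITM proteins sit in membranes and hinder viral entry, MX proteins are dynamin-like GTPases that block incoming capsids or nucleoproteins, viperin (the product of RSAD2) makes a chain-terminating nucleotide, and tetherin (BST2) holds budding particles at the cell surface.

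METTL3 itself was measured first. Its normalized count lay between 459 and 752 in the MCF10A control and between 510 and 981 in the MCF10A METTL3 CRISPR line (log2 fold change 0.33, adjusted p = 0.618). The ranges were 805 to 1016 and 752 to 902 in MCF10AT1 (log2 fold change -0.17, adjusted p = 0.707), and 1022 to 1280 and 745 to 843 in MCF10CA1h (log2 fold change -0.49, adjusted p = 0.0234), so METTL3 RNA was lower beyond the replicate spread in MCF10CA1h and not shown to be lower in the other lines. The authors reported less METTL3 protein by Western blot in the knockdown lines of each cell line, only moderately so in MCF10CA1h. Their real-time PCR showed a lesser decrease of the METTL3 mRNA. Why the RNA levels here differ between lines was not tested, and the groups are called METTL3 CRISPR after their labels. Normalized counts summed to between 21347352 and 31681834 per library, and the number of reads behind a value is unknown. Epithelial markers were present throughout (12 of 12 in the table, KRT19 with a mean under 10 in 5 of the 6 groups), while of 8 leukocyte markers with values, 3 to 5 had means under 10 in a group (PTPRC, CD3E and LYZ in every group, summed level of the list 340 to 3003) and of 5 endothelial markers 2 to 4 (VWF and CDH5 in every group, summed level 46.1 to 866). MCF10A control replicate b held the lowest value of its group for 8 of the 10 effectors and replicate a the highest for 9, so the MCF10A results are also given without replicate b where a call changes. In the other lines, MCF10AT1 control replicate b was lowest for 7 and MCF10CA1h METTL3 CRISPR replicate a highest for 9. MCF10AT1 control replicate b also had the highest sum and the fewest genes above 0, 20121, where every other library had at least 22669.

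The start regions of these genes were searched on both strands for the core letters of the interferon-stimulated response element, GAAA followed by any 2 bases and GAAA again, in RefSeq windows of 250 bases before to 50 bases after each annotated start (build GRCh38.p14). A window was found for 8 of the 10 genes, and none was held for MX2 or IFITM2. The motif was in 7 of these 8 genes (87.5%), against 1195 of 27305 genes overall (4.38%), and in 9 of 12 windows (75.0%) against 3.57% of all 35116 windows, where the overlapping windows of IFI44 hold the same match. The effector without these letters was IFI35. Of other interferon-stimulated effectors with a window, 25 of 41 held the motif (61.0%). Among further genes of the interferon pathway it was in 3 of 7 sensors and adaptors, 5 of 18 ligands and 1 of 2 negative regulators. It was in 0 of 5 receptors and 0 of 6 kinases and transcription factors. The 5 stretches shown here are those of BST2, IFITM1, IFI44 and IFI44L, which had large changes, and of IFITM3, the neighbour of IFITM1, from 200 bases before to 10 bases after the start, 5′ to 3′ on the strand of the gene, with the motif in capitals.
BST2, chr19:17405621-17405830, minus strand: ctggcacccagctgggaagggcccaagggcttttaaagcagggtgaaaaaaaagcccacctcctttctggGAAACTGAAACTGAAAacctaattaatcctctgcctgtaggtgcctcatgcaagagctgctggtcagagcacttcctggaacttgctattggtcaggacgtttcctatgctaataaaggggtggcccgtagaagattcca
IFITM1, chr11:313840-314049, plus strand: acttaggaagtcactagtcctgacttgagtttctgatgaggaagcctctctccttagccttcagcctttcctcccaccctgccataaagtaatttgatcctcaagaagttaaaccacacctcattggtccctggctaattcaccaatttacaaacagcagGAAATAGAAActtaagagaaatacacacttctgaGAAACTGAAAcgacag
IFITM3, chr11:320851-321060, minus strand: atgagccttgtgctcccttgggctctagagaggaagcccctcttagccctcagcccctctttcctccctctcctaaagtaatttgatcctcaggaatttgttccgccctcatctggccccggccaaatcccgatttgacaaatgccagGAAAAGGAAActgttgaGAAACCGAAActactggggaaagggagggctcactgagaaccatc
IFI44L, chr1:78620248-78620457, plus strand: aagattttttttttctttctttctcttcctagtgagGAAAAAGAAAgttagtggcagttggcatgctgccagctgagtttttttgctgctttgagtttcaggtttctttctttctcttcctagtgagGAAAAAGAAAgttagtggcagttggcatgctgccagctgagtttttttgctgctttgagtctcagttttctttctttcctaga
IFI44, chr1:78649589-78649798, plus strand: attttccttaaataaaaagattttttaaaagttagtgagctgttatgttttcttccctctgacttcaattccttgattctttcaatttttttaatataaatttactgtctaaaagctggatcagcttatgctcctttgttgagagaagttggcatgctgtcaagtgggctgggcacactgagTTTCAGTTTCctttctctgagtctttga
The BST2 stretch holds 2 overlapping matches that begin 130 and 124 bases before the start, while those of IFITM1 begin 40 and 6 bases before it and those of IFITM3 52 and 35. IFI44L holds 2 matches, 164 and 73 bases before the start, and in IFI44 the match lies on the other strand and begins 18 bases before it. A match is a description of these letters and not a measured binding site.

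**Figure D1:**
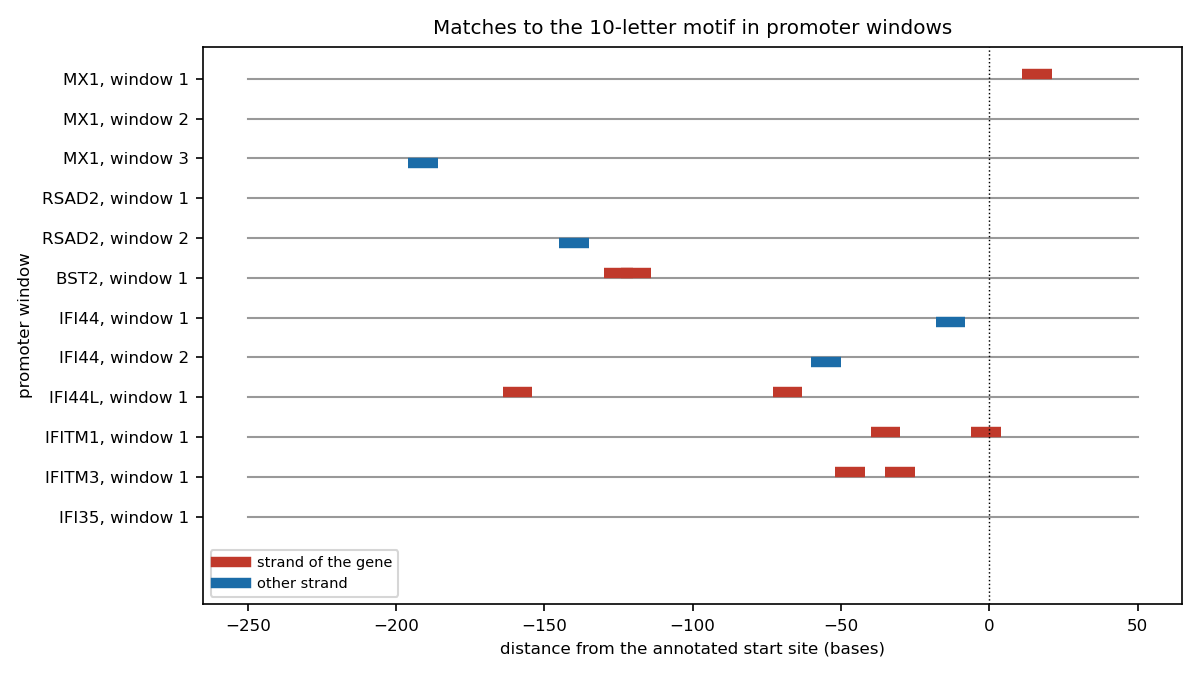
Matches to GAAA, any 2 bases and GAAA in 12 promoter windows of 8 antiviral effector genes, with the distance from the annotated start site in bases on the x axis and 1 window per line. Red bars are matches on the strand of the gene and blue bars matches on the other strand, and the IFI35 window has no bar.

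Nearly all of these genes were called higher in the METTL3 CRISPR line of MCF10CA1h, some in that of MCF10AT1 and none in that of MCF10A. In MCF10CA1h, 9 of 10 effectors were higher than in the control, by 0.67 (IFITM2) to 4.82 (IFI44) on the log2 scale, where 7.91% of the 15127 genes tested were called higher and 12.8% in either direction. RSAD2, among these 9, had a control mean of 6.79 and reached the minimum mean of 10 for testing only through its METTL3 CRISPR libraries. In MCF10AT1, 3 of 9 tested effectors were higher (BST2, IFITM1 and IFI44L), with 7.07% of 16050 genes called higher and 13.0% in either direction. In MCF10A, BST2 was the single effector called among 9 tested and it was lower, with 1.49% of 15416 genes called lower and 2.65% in either direction. The calls come from limma with Benjamini-Hochberg adjustment over all genes tested, at an adjusted p under 0.05, on log2 of the normalized count plus 1, a scale that understates changes of low genes. The median log2 fold change of the effectors was 1.88 in MCF10CA1h, 1.11 in MCF10AT1 and -1.28 in MCF10A, beside -0.02, 0.02 and 0.00 over all genes tested. The first is over 10 effectors and the others over 9, since RSAD2 was tested in MCF10CA1h alone. Without RSAD2 the middle value in MCF10CA1h was that of IFITM1 (1.45). Counted by ranges, the groups did not overlap for 9 of 10 effectors in MCF10CA1h (all higher, 17.4% of all genes), 6 of 9 in MCF10AT1 (all higher, 17.3%) and 3 of 9 in MCF10A (all lower, 13.4%). These are bulk libraries, in which fewer cells with a transcript and less of it per cell cannot be told apart.

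The replicate letter was also used as a block, which assumes that same-letter libraries of a line belong together. With it, 3 effectors were called lower in MCF10A (BST2, IFI44 with adjusted p = 0.0249, and IFITM1 with adjusted p = 0.00583). The genes called in all rose there from 409 to 1172 of 15416. In MCF10AT1, 6 were then called higher, with IFI44 (adjusted p = 0.0183), IFITM2 (adjusted p = 0.0162) and IFITM3 (adjusted p = 0.0152) added to the 3, where the genes called in all rose from 2091 to 3939 of 16050, 2085 of them higher. Without MCF10A control replicate b, 3 effectors were called lower in MCF10A, namely BST2, IFI44 and IFI44L, where 86 of 15422 genes were called. In a joint fit of all 18 libraries, which share 1 estimate of the spread, 5 effectors were called higher in MCF10CA1h and not 9 (MX2, RSAD2, IFI44, IFI44L and IFI35), and 4 lower in MCF10A and not 1 (RSAD2, BST2, IFI44 and IFI44L). That fit called 248 of 15897 genes in MCF10CA1h, 180 of them higher, and 610 in MCF10A. RSAD2 reached the minimum mean of that fit only through the METTL3 CRISPR line of MCF10CA1h.

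Cell type markers moved as well. In MCF10CA1h the summed level of the epithelial list was 390737 to 419528 in the control and 568112 to 644966 in the METTL3 CRISPR line (5 of 11 tested markers higher and 1 lower), and that of the fibroblast list 1478 to 1818 and 2734 to 2821 (2 of 7 higher and 1 lower). The leukocyte list there summed to 898 to 1015 and 927 to 1154 (2 of 3 higher and 1 lower), and the endothelial list to 101 to 140 and 46.1 to 77.3 (1 of 2 lower). In MCF10A the leukocyte sum was 841 to 2259 in the control and 340 to 614 in the METTL3 CRISPR line and the endothelial sum 56.1 to 237 and 339 to 536, with none of the 3 markers tested in either list called. The epithelial and fibroblast sums overlapped between the MCF10A arms. The part of these markers in the results was not tested.

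**Figure D2:**
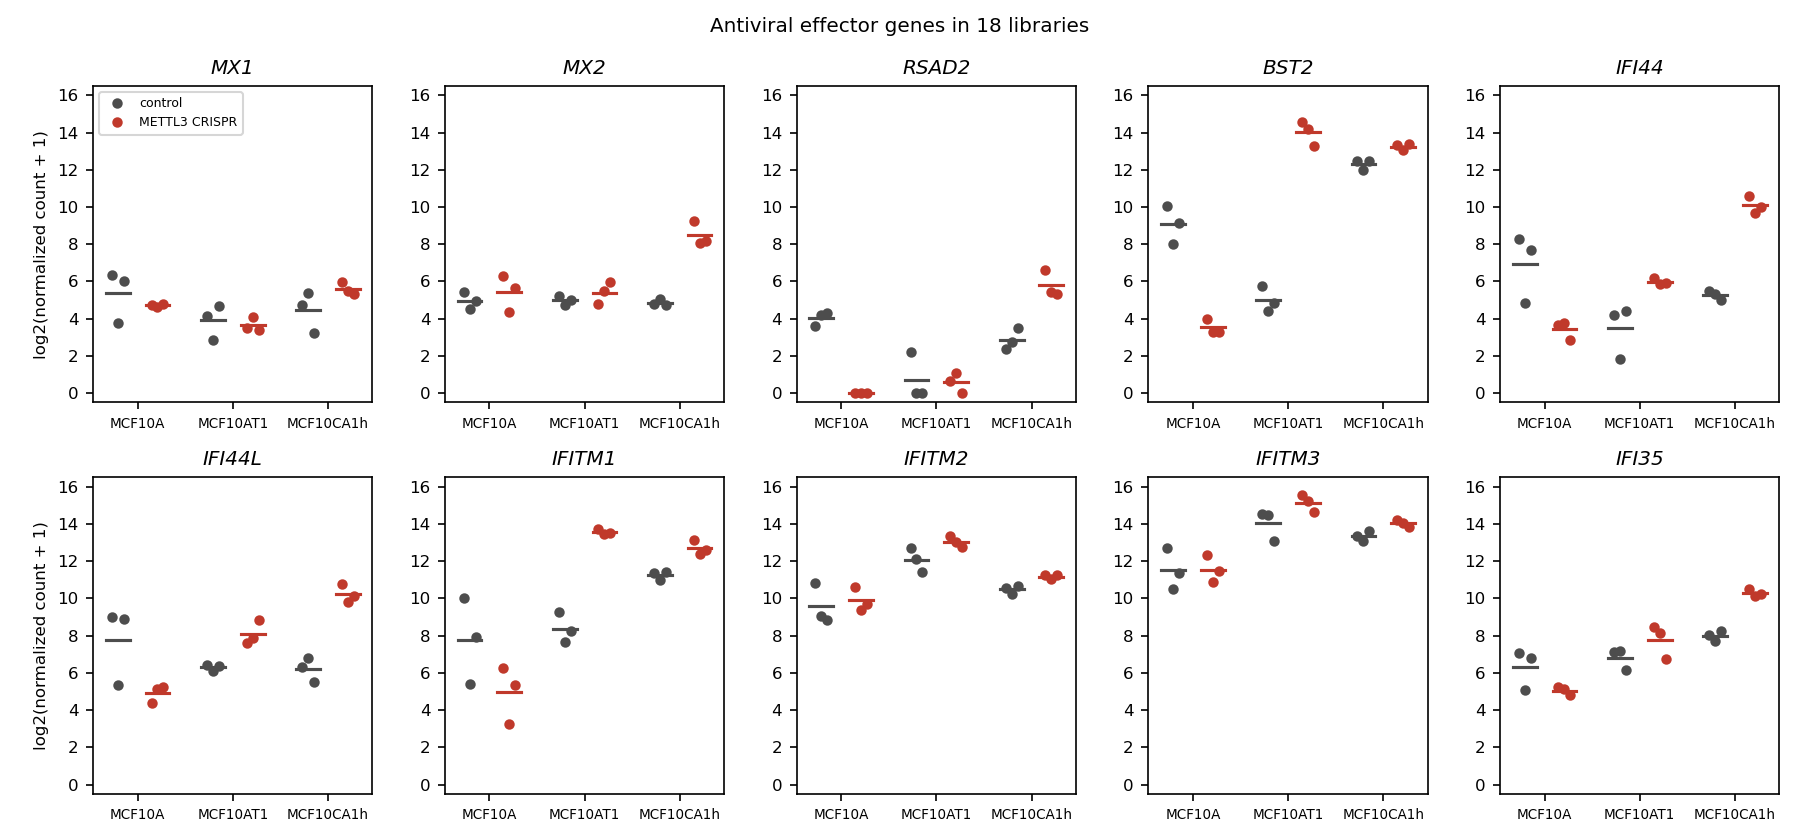
Log2 of the normalized count plus 1 of each effector gene in 18 libraries, with control libraries in grey and METTL3 CRISPR libraries in red, 3 points per group and a bar at their mean. BST2 and IFITM1 are highest in the METTL3 CRISPR line of MCF10AT1, and MX2, RSAD2, IFI44, IFI44L and IFI35 in that of MCF10CA1h.

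BST2 (ENSG00000130303, chromosome 19, 17402939 to 17405630 of hg38, 5 exons) encodes tetherin, a membrane protein that links budding virions to the cell. It was the one effector called in all 3 lines, lower in MCF10A and higher in MCF10AT1 and MCF10CA1h. In MCF10A its normalized counts were 1077, 256 and 568 in control replicates a, b and c, and 14.9, 8.83 and 8.83 in the METTL3 CRISPR line. In MCF10AT1 the control held 52.3, 20.1 and 27.8, and the METTL3 CRISPR line 24515, 18960 and 9966. Every library of MCF10A METTL3 CRISPR was thus below every control library, and in MCF10AT1 the order was the opposite. In MCF10CA1h, where the control was already high, the values were 5768, 4041 and 5725 against 10252, 8524 and 10523, again without overlap. The means were 634 ± 414 and 10.9 ± 3.53 in MCF10A, 33.4 ± 16.8 and 17813 ± 7342 in MCF10AT1, and 5178 ± 985 and 9766 ± 1084 in MCF10CA1h (SD, n = 3). The log2 fold change was -5.55 in MCF10A (standard error 0.51, adjusted p = 0.0052), 9.03 in MCF10AT1 (standard error 0.45, adjusted p = 2.51e-05) and 0.93 in MCF10CA1h (standard error 0.14, adjusted p = 0.00288). The ratio of the means was 533 in MCF10AT1 and 1.89 in MCF10CA1h. The MCF10CA1h call was lost in the joint fit of 18 libraries (adjusted p = 0.50).

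The closest annotated neighbour of BST2 is BISPR, a long non-coding RNA that lies 56 bases away. Its normalized counts were 37.2, 29.9 and 22.4 in the MCF10A control and 5.47, 1.42 and 7.42 in the METTL3 CRISPR line. They were 2.31, 0.00 and 17.9 against 171, 105 and 146 in MCF10AT1, and 55.4, 41.7 and 57.9 against 152, 117 and 110 in MCF10CA1h. BISPR was higher in MCF10AT1 (log2 fold change 5.13, adjusted p = 0.0116) and MCF10CA1h (1.27, adjusted p = 0.00698), and in MCF10A its change of -2.57 missed the threshold (adjusted p = 0.0602), although its groups did not overlap there. Its MCF10AT1 control mean of 6.73 was under the minimum of 10, so BISPR was tested in that line only through the METTL3 CRISPR libraries. On the other side lies CCDC194, 8743 bases away, whose mean was 0.00 in the MCF10AT1 control and 13.8 in its METTL3 CRISPR line, with values of 25.7, 5.69 and 10.02. In MCF10CA1h it was 0.89, 1.75 and 3.73 against 17.6, 5.75 and 19.9, again without overlap. In MCF10A it was 1.83, 0 and 0 against 0.89, 0 and 2.39.

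The METTL3 CRISPR line of MCF10AT1 also stood apart in its cell type markers. Of 12 epithelial markers, 7 were lower there and none higher, among them CDH1 (log2 fold change -6.79, adjusted p = 0.000474) and EPCAM (-5.16, adjusted p = 3.83e-05), and the summed level of the list was 166026 to 243577 in the control and 103392 to 194442 in the METTL3 CRISPR line. Of the 6 fibroblast markers tested, THY1 (9.61, adjusted p = 2.51e-05) and COL3A1 (8.95, adjusted p = 0.000144) were higher, and the summed level of the 9 in the table was 470 to 740 against 2816 to 4584. Of 5 leukocyte markers tested, ITGAX was higher (3.19), with a summed level of 869 to 1614 against 2031 to 3003, and the 1 endothelial marker tested was not called (summed level of the list 233 to 866 against 382 to 644). THY1, COL3A1 and ITGAX had means under 10 in the control, so they were tested only through their METTL3 CRISPR libraries. Whether the cell type markers have a part in the BST2 and IFITM1 results was not tested.

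The IFITM genes lie side by side on chromosome 11 of hg38, IFITM2 (ENSG00000185201) from 303655 to 309397, IFITM1 (ENSG00000185885) from 310041 to 315272 and IFITM3 (ENSG00000142089) from 319676 to 329475, the last overlapping IFITM3-AS1, which was not analysed here. They encode small membrane proteins that restrict viral entry, IFITM1 largely at the cell surface and IFITM2 and IFITM3 in endosomes. Their transcripts are alike enough that the authors' pseudo-alignment could split reads between them. By base, the coding sequences were 93.9% identical between IFITM2 and IFITM3, 90.1% between IFITM1 and IFITM3 and 86.8% between IFITM1 and IFITM2, and 37.8% of the 31-base words of IFITM1, 29.8% of those of IFITM2 and 26.4% of those of IFITM3 were also found in a transcript of another gene. The first 150 coding bases of the closest pair are shown, with the bases that differ in their alignment in capitals, including 3 bases that IFITM3 has in addition.
IFITM2: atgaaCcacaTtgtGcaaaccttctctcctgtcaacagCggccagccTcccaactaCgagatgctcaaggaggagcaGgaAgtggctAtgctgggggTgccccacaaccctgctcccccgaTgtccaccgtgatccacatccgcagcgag
IFITM3: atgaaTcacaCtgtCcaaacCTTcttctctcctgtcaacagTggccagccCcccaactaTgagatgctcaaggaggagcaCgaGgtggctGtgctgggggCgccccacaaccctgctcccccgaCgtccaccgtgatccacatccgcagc
The values of single IFITM genes are therefore uncertain to the extent that reads were shared.

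IFITM1 had the largest log2 fold changes of the 3 in MCF10AT1 and MCF10CA1h. In the MCF10AT1 control its normalized counts were 609, 200 and 300, and in the METTL3 CRISPR line 13798, 11214 and 11599 (means 370 ± 213 and 12204 ± 1394, SD, n = 3, log2 fold change 5.19, standard error 0.40, adjusted p = 0.000152). In MCF10CA1h they were 2610, 2006 and 2796 against 8970, 5300 and 6297 (log2 fold change 1.45, standard error 0.19, adjusted p = 0.000965). Neither pair of groups overlapped. In the MCF10A control IFITM1 was 1039, 42.0 and 241, a 24.7-fold range within a group, and 76.5, 8.59 and 40.2 in the METTL3 CRISPR line. These groups overlapped, and the log2 fold change of -2.82 had a standard error of 1.14 (adjusted p = 0.235). The adjusted p for MCF10CA1h was 0.65 in the joint fit.

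IFITM3 held 24135, 22547 and 8805 in the MCF10AT1 control and 47923, 39162 and 25955 in its METTL3 CRISPR line, a log2 fold change of 1.11 (adjusted p = 0.153) with no overlap between the groups. In MCF10CA1h the values were 10606, 8732 and 12792 against 19347, 17251 and 14605, and IFITM3 was called higher (0.68, standard error 0.15, adjusted p = 0.0136). That call was lost without MCF10CA1h METTL3 CRISPR replicate b, without the intensity trend and in the joint fit, where the adjusted p reached 0.77. In MCF10A the values were 6792, 1478 and 2619 against 5084, 1878 and 2819, the second range lying inside the first (0.01, 95% interval -1.25 to 1.27, adjusted p = 0.995).

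IFITM2 was 6718, 4475 and 2735 in the MCF10AT1 control and 10332, 8482 and 7006 in the METTL3 CRISPR line (log2 fold change 0.97, adjusted p = 0.127), and 1531, 1210 and 1654 against 2420, 2129 and 2417 in MCF10CA1h (0.67, standard error 0.13, adjusted p = 0.00745). The groups did not overlap in either line, and the MCF10CA1h call was lost without the intensity trend and in the joint fit (adjusted p = 0.72). In MCF10A the values were 1837, 523 and 462 against 1545, 657 and 844 (0.32, adjusted p = 0.807). Summed over the 3 genes, which does not depend on how reads were split among them, the level was 11841 to 31462 in the MCF10AT1 control and 44561 to 72052 in its METTL3 CRISPR line, and IFITM1 made up 0.73 to 2.53% of the sum in the former and 19.1 to 26.0% in the latter. In MCF10CA1h the sum was 11948 to 17242 against 23319 to 30737. In MCF10A it was 2043 to 9669 against 2543 to 6706, so those groups overlapped.

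IFI44 and IFI44L are neighbouring genes 3644 bases apart on chromosome 1, related in sequence (69.1% identity over their aligned coding bases), with roles in restraining viral replication that are less well defined than those of the other effectors. IFI44 (ENSG00000137965) lies from 78649796 to 78664078 and IFI44L (ENSG00000137959) from 78619902 to 78646145. Both were among the most changed effectors of MCF10CA1h. IFI44 was 43.9, 39.7 and 30.99 in that control and 1555, 820 and 1020 in the METTL3 CRISPR line (means 38.2 ± 6.57 and 1132 ± 380, SD, n = 3, log2 fold change 4.82, standard error 0.24, adjusted p = 1.47e-05). IFI44L was 78.1, 112 and 44.6 against 1767, 901 and 1128 (4.03, standard error 0.33, adjusted p = 7.02e-05). The ratio of the means was 29.6 for IFI44 and 16.2 for IFI44L, and replicate a was the highest of the METTL3 CRISPR libraries for both.

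In MCF10AT1, IFI44L was called higher (83.7, 68.1 and 83.2 in the control, 191, 231 and 466 in the METTL3 CRISPR line, log2 fold change 1.80, standard error 0.43, adjusted p = 0.0275). IFI44 was 17.5, 2.58 and 20.5 against 70.8, 56.2 and 59.9, with no overlap and a log2 fold change of 2.48 that missed the threshold without the block (adjusted p = 0.0664). The IFI44L call was lost in 6 of 14 alternatives, among them equal sums per library and each of 4 libraries left out (control replicates a and b, METTL3 CRISPR replicates b and c), with an adjusted p of up to 0.0919. In MCF10A both genes were lower in every METTL3 CRISPR library than in any control library, IFI44 with 11.4, 12.6 and 6.29 against 314, 27.9 and 202, and IFI44L with 19.6, 34.6 and 36.3 against 517, 40.4 and 480. Control replicate b lay close to the METTL3 CRISPR libraries for both. The log2 fold changes of -3.52 (IFI44, adjusted p = 0.068) and -2.85 (IFI44L, adjusted p = 0.14) missed the threshold, and both passed it when control replicate b was left out.

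MX1 and MX2 lie 11165 bases apart on chromosome 21, MX2 (ENSG00000183486) from 41361999 to 41409393 and MX1 (ENSG00000157601) from 41420020 to 41470071. MX1 protein acts against many RNA viruses, and MX2 (MxB) against HIV and herpesviruses. The pair did not move alike. MX2 was 26.4, 32.4 and 25.6 in the MCF10CA1h control and 611, 264 and 283 in its METTL3 CRISPR line (means 28.1 ± 3.69 and 386 ± 195, SD, n = 3, log2 fold change 3.63 with a standard error of 0.31, adjusted p = 0.000101). The lowest of those METTL3 CRISPR libraries lay above the highest library of every other group. MX1 was 25.9, 40.8 and 8.50 in the control and 62.8, 44.2 and 39.4 in the METTL3 CRISPR line, so the groups overlapped, with a log2 fold change of 1.15 (standard error 0.50, 95% interval 0.03 to 2.27, adjusted p = 0.169). In MCF10A and MCF10AT1 neither gene was called. MX1 was 80.1, 12.6 and 63.5 against 25.9, 24.1 and 26.5 in MCF10A and 17.0, 6.32 and 25.1 against 10.4, 16.1 and 9.63 in MCF10AT1. MX2 was 42.0, 21.8 and 29.9 against 76.1, 19.4 and 49.7 in MCF10A, and 36.6, 25.3 and 30.9 against 26.3, 44.2 and 60.5 in MCF10AT1.

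RSAD2 (ENSG00000134321, chromosome 2, 6865557 to 6898239, 6 exons) encodes viperin, a radical SAM enzyme, and shares part of its locus with CMPK2, which was not analysed here. It was the effector with the most libraries listed at 0. In MCF10CA1h the normalized counts were 4.08, 5.81 and 10.5 in the control and 96.4, 42.9 and 39.0 in the METTL3 CRISPR line (log2 fold change 2.92, standard error 0.48, adjusted p = 0.00365), without overlap. The control mean of 6.79 was under the minimum of 10, so RSAD2 was tested there only through its METTL3 CRISPR libraries. In MCF10A they were 11.3, 17.2 and 19.1 in the control, and RSAD2 was listed at 0 in all 3 libraries of the METTL3 CRISPR line. It was not tested there, since its mean over those 6 libraries was under 10, and with no filter on low values it was called lower. In MCF10AT1 it was listed at 3.57, 0 and 0 against 0.59, 1.12 and 0, and was not tested either.

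IFI35 (ENSG00000068079, chromosome 17, 43006740 to 43014456, 7 exons) encodes a leucine zipper-type protein that binds NMI and takes part in innate signalling. It was 266, 206 and 303 in the MCF10CA1h control and 1456, 1142 and 1218 in the METTL3 CRISPR line (means 258 ± 49.1 and 1272 ± 164, SD, n = 3, log2 fold change 2.31, standard error 0.16, adjusted p = 4.05e-05), with every METTL3 CRISPR library above every control library. In MCF10AT1 the values were 139, 145 and 70.7 against 349, 279 and 106, with overlap (0.95, adjusted p = 0.296). In MCF10A they were 134, 33.3 and 113 against 36.9, 33.6 and 26.9, again overlapping, with control replicate b among the METTL3 CRISPR values (-1.28, adjusted p = 0.237). The gene RPL27, 3825 bases away, and VAT1, 151 bases away, were not called in any of the 3 lines.

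**Figure D3:**
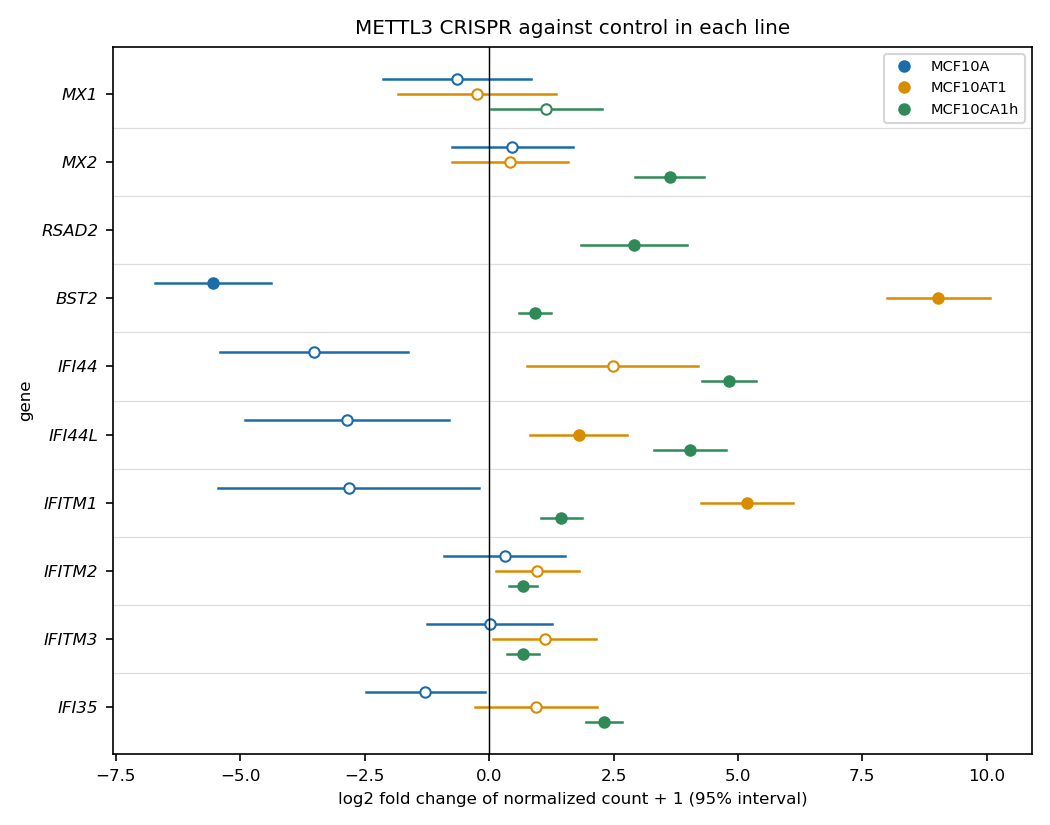
Log2 fold change of METTL3 CRISPR against control for each effector in MCF10A (blue), MCF10AT1 (orange) and MCF10CA1h (green), with lines for the 95% interval from limma, filled circles for an adjusted p under 0.05 and open circles otherwise. BST2 lies at -5.55, 9.03 and 0.93 in the 3 lines, and RSAD2 is shown for MCF10CA1h alone because it was not tested in the others.

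The control libraries were compared between lines. They are separate CRISPR lines and give no level of the METTL3 CRISPR lines before the guide. Relative to the MCF10A control, the MCF10AT1 control held more IFITM2 (log2 fold change 2.51 with a standard error of 0.50, adjusted p = 0.00878) and IFITM3 (2.503, standard error 0.54, adjusted p = 0.0115) and less BST2 (-4.08, standard error 0.50, adjusted p = 0.00109) and IFI44 (-3.45, standard error 0.92, adjusted p = 0.0241). That is 4 of 9 effectors tested, 2 in each direction, where 28.1% of 15652 genes were called, 13.3% higher and 14.7% lower. The IFI44 call was lost when MCF10A control replicate a or c or MCF10AT1 control replicate a or b was left out. Without MCF10A control replicate b, IFI44L was called lower as well (-2.66, adjusted p = 0.00854), which made 5 of 9, where 1661 of 15640 genes were called.

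The MCF10CA1h control held more IFITM1 (log2 fold change 3.47, adjusted p = 0.0165), BST2 (3.24, adjusted p = 0.00145), IFITM3 (1.83, adjusted p = 0.0248) and IFI35 (1.66, adjusted p = 0.0293) than the MCF10A control, 4 of 9, where 37.8% of genes were called and 19.0% were called higher. The split into higher and lower depended on MCF10A control replicate b. Without it BST2 (2.71, adjusted p = 0.00502) and IFITM1 (2.29, adjusted p = 0.0314) were higher, IFI44 (-2.71, adjusted p = 0.032) and IFI44L (-2.75, adjusted p = 0.00351) were called lower, and IFITM3 and IFI35 lost their calls, where 3878 of 15640 genes were called. Only BST2 was still called when MCF10CA1h control replicate a or c was left out. Against the MCF10AT1 control, 1 of 9 effectors was called in MCF10CA1h (BST2, 7.32, standard error 0.50, adjusted p = 3.66e-05), where 21.8% of genes were and 11.0% were higher. IFITM1 (2.88, adjusted p = 0.0519) and IFITM2 (-1.58, adjusted p = 0.0504) missed the threshold there although their groups did not overlap, and both passed it with a pseudocount of 5 and in the joint fit, which also called RSAD2. Without MCF10A control replicate b, IFITM1 and IFI35 were called higher beside BST2, where 2666 of 15640 genes were called. Of these 6 groups, BST2 was lowest in MCF10A METTL3 CRISPR and highest in MCF10AT1 METTL3 CRISPR, and along the order of the means the ranges of the top pair of groups (MCF10AT1 and MCF10CA1h METTL3 CRISPR) overlapped while all other neighbours were separate.

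Whether the METTL3 CRISPR effect differed between lines was tested directly, as the difference of the log2 fold changes in a fit of all 18 libraries. Between MCF10AT1 and MCF10A, 6 of 10 effectors differed, all with a higher effect in MCF10AT1, where 21.6% of 15897 genes were called and 11.2% were higher. BST2 showed the widest gap (14.58, standard error 0.63, adjusted p = 2.74e-10), followed by IFITM1 (8.01, adjusted p = 0.000133), IFI44 (6.002, adjusted p = 0.000506) and IFI44L (4.65, adjusted p = 0.00285). IFI35 (2.23, adjusted p = 0.0266, lost in 6 of 25 alternatives) and RSAD2 (3.90, adjusted p = 0.00466) were also called. RSAD2 was under the filter in both of these lines and entered the fit only through its values in the METTL3 CRISPR line of MCF10CA1h. Without replicate a of that group it was not tested, and 5 of 9 effectors differed, where 3229 of 15901 genes were called. Its value here also depends on the pseudocount, since it was listed at 0 in the MCF10A METTL3 CRISPR libraries and near 0 in MCF10AT1, so that no effect is read from it.

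Between MCF10CA1h and MCF10A, 7 of 10 effectors had a higher effect in MCF10CA1h, where 5.34% of genes were called and 3.65% were higher. The differences were 8.33 for IFI44 (adjusted p = 0.000235), 6.89 for IFI44L (adjusted p = 0.000633), 6.48 for BST2 (adjusted p = 2.65e-05), 3.59 for IFI35 (adjusted p = 0.00505) and 3.16 for MX2 (adjusted p = 0.00987). IFITM1 (4.27, adjusted p = 0.0479) lay close to the threshold and lost its call in 17 of 25 alternatives, and RSAD2 rested on the group at 0. RSAD2, counted among the 7, also passed the filter only through the METTL3 CRISPR line of MCF10CA1h, so no effect is read from its difference. IFITM2, IFITM3 and MX1 were not called, with 95% intervals of -0.95 to 1.67, -0.79 to 2.12 and -0.16 to 3.75.

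MCF10CA1h and MCF10AT1 differed for 4 of 10 effectors, where 18.2% of genes were called, 9.67% higher and 8.51% lower. The effect was higher in MCF10CA1h for MX2 (3.21, standard error 0.67, adjusted p = 0.00266) and RSAD2 (3.06, adjusted p = 0.0249) and lower for BST2 (-8.10, standard error 0.63, adjusted p = 1.61e-07) and IFITM1 (-3.74, adjusted p = 0.0394). RSAD2, counted among the 4, passed the filter only through the METTL3 CRISPR line of MCF10CA1h, so no effect is read from its difference. The IFITM1 call was lost in 14 of 25 alternatives and the RSAD2 call in 5 of 23. The count fell to 2 (MX2 and BST2) when MCF10CA1h control replicate a or b or METTL3 CRISPR replicate a was left out. In those fits 2139 to 2383 genes were called in all. The count rose to 6 without MCF10A control replicate b (IFI44 and IFI44L added), where 2680 of 15904 genes were called. For IFI44 (2.33, 95% interval 0.14 to 4.53, adjusted p = 0.139) and IFI44L (2.24, 95% interval 0.13 to 4.34, adjusted p = 0.14) a difference between these lines was not shown. These contrasts share libraries with each other and with the comparisons within lines, so their values are given side by side and not as separate evidence.

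**Figure D4:**
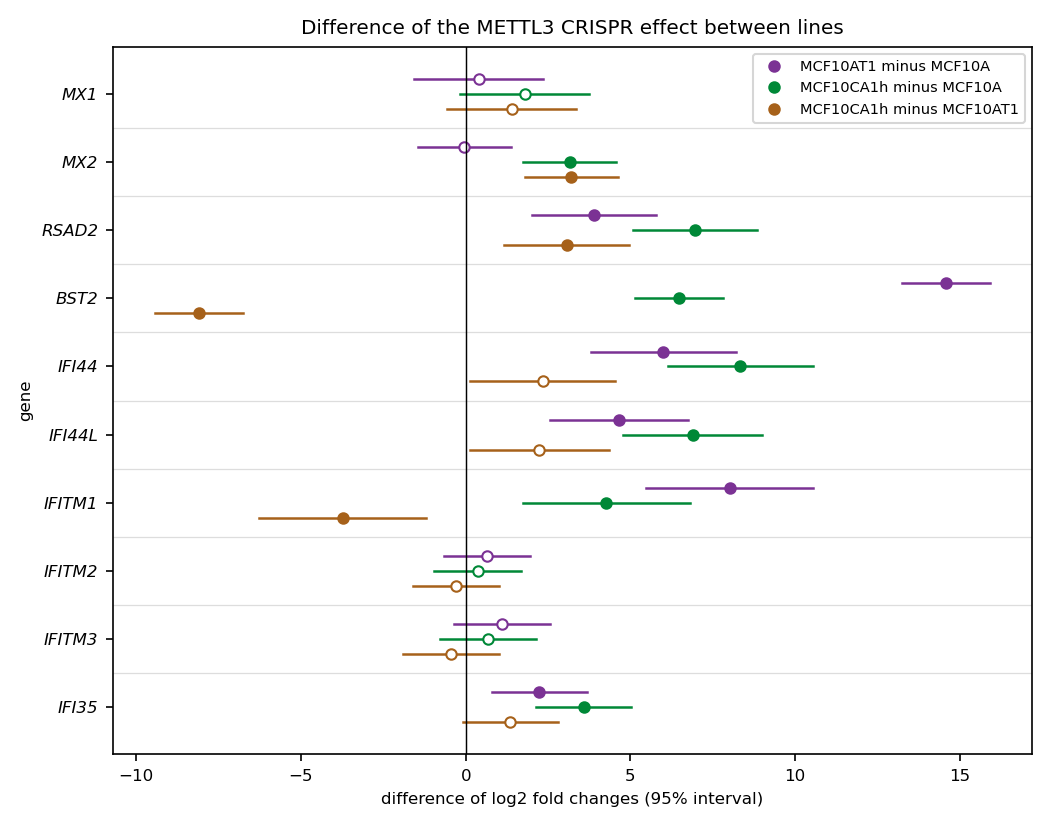
Difference of the METTL3 CRISPR effect between lines for each effector, in log2 units, MCF10AT1 minus MCF10A in purple, MCF10CA1h minus MCF10A in green and MCF10CA1h minus MCF10AT1 in brown, with 95% intervals from limma and filled circles for an adjusted p under 0.05. For BST2 and IFITM1 the purple value is the highest and the brown value is below 0, while for MX2 the purple value is near 0.

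The rest of the interferon pathway was counted from lists written by role. Of the ligands in the list, 11 of 22 were in the table and most were too low to test. IFNL1, a type III interferon, was 0, 1.77 and 6.20 in the MCF10CA1h control and 40.8, 22.2 and 45.5 in its METTL3 CRISPR line (log2 fold change 3.71, adjusted p = 0.00827), and IFNE, an epithelial interferon, was 19.6, 50.7 and 16.3 against 123, 222 and 321 in MCF10AT1 (2.97, adjusted p = 0.0115). The IFNL1 control mean of 2.66 was under the minimum of 10, so IFNL1 was tested only through its METTL3 CRISPR libraries. IFNB1 was listed at 0 in every MCF10CA1h control library and at 6.09, 1.16 and 7.73 in the METTL3 CRISPR line.

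Among the 6 receptor genes, none was called in MCF10AT1 or MCF10CA1h, and IFNLR1 was higher in MCF10A (3.27, adjusted p = 0.0173). Its MCF10A control mean of 7.14 was under the minimum of 10, so IFNLR1 was tested there only through the METTL3 CRISPR libraries. Of 9 kinases and transcription factors, 4 were higher in MCF10CA1h, among them the complex members STAT2 (1.84, adjusted p = 4.06e-05) and IRF9 (3.01, adjusted p = 1.76e-05) and also IRF7 (2.67, adjusted p = 3.27e-05). In MCF10AT1 the 1 called was IRF1 (1.76, adjusted p = 0.0428), while STAT2 and IRF9 had log2 fold changes of -0.45 and -0.51 and were not called. IRF9 was the one called in MCF10A, where it was lower (-1.98, adjusted p = 0.0333).

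Of 10 sensors and adaptors tested, 7 were higher in MCF10CA1h (7.91% of all genes), led by the RNA sensor RIGI (3.32, adjusted p = 7.02e-05), 1 in MCF10AT1 (STING1, 1.80, adjusted p = 0.00441, with 7.07% of all genes called higher) and none in MCF10A. The negative regulator USP18 was higher in MCF10CA1h (2.42, adjusted p = 0.000198), and SOCS3 in MCF10AT1 (2.24, adjusted p = 0.00309). The largest list held other interferon-stimulated effectors, of which 43 of 51 tested were higher in MCF10CA1h and none lower, 8 higher and 3 lower of 49 in MCF10AT1, and 1 higher and 5 lower of 49 in MCF10A. Of all genes, 7.91% were higher in MCF10CA1h, 7.07% higher and 5.96% lower in MCF10AT1, and 1.16% higher and 1.49% lower in MCF10A, so the count of lower genes in MCF10AT1 and of higher genes in MCF10A lay near the background. The median log2 fold change of the list was 1.98, 0.00 and -0.66 in these lines. In each line, some members of the list had a mean under 10 in 1 arm and were tested through the other arm alone. The counts and medians thus include genes that entered through the arm where they were high. IFI27 and IFIT1 in MCF10A are among them, with METTL3 CRISPR means of 5.34 and 6.28. The largest changes in MCF10CA1h were those of IFIT1 (5.93), IFI27 (5.89), IFI6 (5.65) and ISG15 (4.84), those in MCF10AT1 of UBE2L6 (7.09), APOBEC3G (6.56), APOBEC3F (5.56) and UBA7 (4.25), and those in MCF10A of IFI27 (-6.52), IFI6 (-5.38), IFIT1 (-4.74) and OASL (-3.31).

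The effectors differed in how closely they followed each other over the 18 libraries. The correlation of a gene with the mean standardized level of the other 9 was highest for IFI35 (Pearson r 0.908) and IFI44L (0.875) and lowest for MX1 (0.258) and IFITM2 (0.304). The closest pairs were IFITM2 with IFITM3 (0.933), BST2 with IFITM1 (0.911) and IFI44 with IFI44L (0.907), of which the first shares transcript sequence. Outside the list, the 5 genes most like the mean of the effectors, among 15887, were IRF7 (0.937), SHFL (0.936), IFIT3 (0.906), HCP5 (0.903) and PDIA5 (0.899). These values describe 18 libraries that fall into 6 groups, and are given without a test. IRF7, an interferon regulatory factor, was 115, 141 and 173 in the MCF10CA1h control and 1087, 813 and 842 in its METTL3 CRISPR line, 72.5, 74.5 and 62.5 against 187, 174 and 110 in MCF10AT1, and 244, 63.6 and 268 against 29.3, 35.3 and 18.7 in MCF10A.

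**Figure D5:**
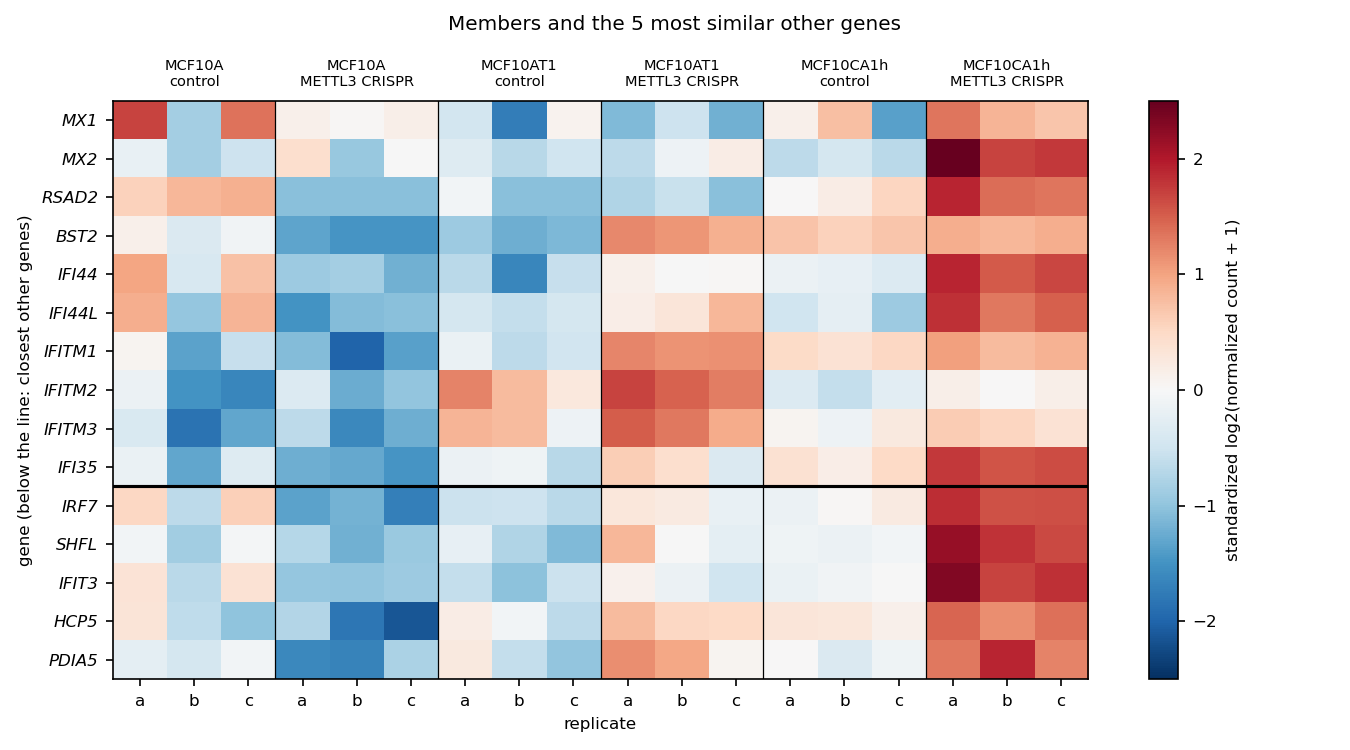
Log2 of the normalized count plus 1, standardized per gene over 18 libraries, for the 10 effectors and, under the line, the 5 other genes closest to their mean, with libraries in columns by group and replicate. IFI44, IFI44L, IFI35 and IRF7 are highest in the METTL3 CRISPR line of MCF10CA1h, while IFITM2 and IFITM3 are highest in that of MCF10AT1.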

How the data were processed

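RNA of 6 groups of 3 libraries was analysed from 1 deposited table. The methods text names both polyA RNA and ribosomal RNA depletion, and the conflict was not resolved. Reads were pseudo-aligned by the authors to hg38 transcripts in kallisto 0.46.1, collected per gene by tximport and scaled by DESeq2 1.26.0 in R 4.1.1 (per the labels and the methods). The deposited values are this normalized signal, not whole reads: 7.8% to 37.3% of low values per library lay at whole multiples of the most frequent low value, so no count test was run and no counting error is given. Of the table's rows, 24646 held no gene with values and were left out. Symbols came from a gene name table, 35894 of 35933 genes matched, and where several genes shared a symbol (294 cases) the one with the higher values kept it.

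Tests used limma 3.58.1 (lmFit, eBayes with an intensity trend) in R 4.3.3 on log2(value + 1), keeping genes whose mean over the fitted libraries reached 10, two-sided, with Benjamini-Hochberg adjustment over all genes tested and a threshold of 0.05. A gene with a mean under 10 in 1 arm could thus be tested through the other arm alone. Each line was fitted alone, the control lines were compared in 1 fit of the 9 control libraries, and differences between lines in 1 fit of 18 libraries. The fits were tested on simulated data with 200 changed genes and the spread of each gene averaged over the groups. For METTL3 CRISPR against control in MCF10CA1h, 9 of 67 genes changed by 1 on the log2 scale were called (13.4%). Of those changed by 2 it was 49 of 67 (73.1%), and of those changed by 4, 65 of 66 (98.5%). Under that averaged spread, a gene with a change near 1 can go uncalled. The spread within MCF10CA1h alone was not simulated. The real fit there called IFITM2, IFITM3 and BST2 at changes under 1, so these shares do not give its power. Positions came from GENCODE 44, and neighbours, promoters and shared 31-base words from RefSeq and GENCODE with Python 3.11.15, pandas 2.3.3, NumPy 2.4.6 and Biopython 1.88. Figures were drawn with matplotlib 3.10.9.

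The replicate letters come from the titles. The deviations of same-letter libraries from their group means, over 15897 genes, correlated by 0.116 to 0.221 between the arms in MCF10A. In MCF10AT1 it was 0.11 to 0.477, and the letters were taken to pair the libraries of these lines. Between control libraries of different lines, same-letter correlations ran from -0.268 to 0.284. Libraries of different letters were not compared, so the pairing is an assumption. In MCF10CA1h the correlation was -0.011 to 0.046.

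The effectors, the pathway lists and the tests were chosen with earlier results of these data known. The genes named are the 10 effectors, METTL3, the receptors, kinases, transcription factors and negative regulators, up to 4 called genes per other list and line with the largest change, the nearest neighbours, and the 5 genes most like the effectors. IFNB1 and the cell type markers given with values were picked after their values were seen. The values of 1 pathway gene are not reported here. Alternatives were pseudocounts of 0.5 and 5, no filter, a minimum mean of 50, equal sums per library, no intensity trend, the replicate block, a joint fit, and each library left out in turn.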

Additional observations from a re-analysis of the deposited data

Results flagged for a closer look

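Each of the following was singled out because the METTL3 CRISPR effect differed between lines by a test of the difference itself (log2 scale, adjusted p from limma). Between MCF10AT1 and MCF10A the differences were 14.58 for BST2 (2.74e-10), 8.01 for IFITM1 (0.000133), 6.0 for IFI44 (0.000506), 4.65 for IFI44L (0.00285), 3.90 for RSAD2 (0.00466) and 2.23 for IFI35 (0.0266). Between MCF10CA1h and MCF10A they were 8.33 for IFI44 (0.000235), 6.96 for RSAD2 (0.000294), 6.89 for IFI44L (0.000633), 6.48 for BST2 (2.65e-05), 4.27 for IFITM1 (0.0479), 3.59 for IFI35 (0.00505) and 3.16 for MX2 (0.00987). Between MCF10CA1h and MCF10AT1 they were -8.10 for BST2 (1.61e-07), -3.74 for IFITM1 (0.0394), 3.20 for MX2 (0.00266) and 3.06 for RSAD2 (0.0249). RSAD2 was under the filter in MCF10A and MCF10AT1 and entered the fit only through the METTL3 CRISPR line of MCF10CA1h, so no effect is read from any of its differences. It was listed at 0 in the MCF10A METTL3 CRISPR libraries, so its values against MCF10A depend on the pseudocount. Each arm is 1 CRISPR line, so clone and target cannot be told apart.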

How the results depend on the processing

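Of 39 calls of an effector in a comparison, 26 held under every alternative in which the gene was tested, and none changed direction. RSAD2 was tested in 13 of 14 alternatives in MCF10CA1h and in 23 of 25 for the differences between lines. Of 168 recomputed counts of called effectors, 149 stayed within 1.5 times the reported one. In MCF10A the count of 1 became 3 with no filter, 3 with the replicate block and 4 in the joint fit. It was 1 to 3 with a library left out (3 without control replicate b). In all, 409 of 15416 genes were called in the main fit. With those settings it was 468 of 33141, 1172 of 15416 and 610 of 15897, and without control replicate b 86 of 15422. The replicate block gave 6 in MCF10AT1 and left MCF10CA1h at 9, where the joint fit gave 5. Genes called in all were then 3939 of 16050 in MCF10AT1, and 1876 of 15127 (block) and 248 of 15897 (joint fit) in MCF10CA1h. The MCF10CA1h control against the MCF10A control gave 1 to 5 with a library left out and 1 without MCF10CA1h control replicate a or c. Without those replicates 3684 of 15693 and 3675 of 15683 genes were called, against 5920 of 15652 in the main fit. Against the MCF10AT1 control the count of 1 became 3 with a pseudocount of 5, 3 with the replicate block and 4 in the joint fit. It was 1 to 3 with a library left out (3 without MCF10A control replicate a or b, 2 without MCF10A or MCF10AT1 control replicate c). Genes called in all went from 3410 of 15652 to 3502 of 15652, 2756 of 15652 and 4551 of 15897 with the first 3 settings. Without MCF10AT1 control replicate c it was 5593 of 15613, a higher share than that of the effectors. Without MCF10A control replicate a, b or c it was 3456 of 15640, 2666 of 15640 and 3276 of 15637. The letters were not taken to pair control libraries of different lines. The difference between MCF10CA1h and MCF10AT1 fell from 4 to 2 with no filter and lay at 2 to 6 with a library left out, 6 without MCF10A control replicate b. Genes called in all were 2890 of 15897, then 2721 of 35933 with no filter and 2680 of 15904 without that replicate. The replicate block added IFITM3 (adjusted p = 0.0145) to the difference between MCF10AT1 and MCF10A and changed no other call of that kind. Genes called in all rose there from 3437 to 4601 of 15897.

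Signs turned in 25 of 1579 recomputed log2 fold changes, all of effectors that had not been called. Under equal sums per library MX2 became -0.11 between the MCF10AT1 and MCF10A controls and IFI44L 0.022 between the MCF10CA1h and MCF10AT1 controls. The other reversals came from single libraries left out, with these ranges. METTL3 CRISPR against control gave -0.046 to 0.949 (IFITM2) and -0.493 to 0.607 (IFITM3) in MCF10A and -0.767 to 0.151 (MX1) in MCF10AT1. The MCF10AT1 against the MCF10A control gave -0.206 to 0.252 (MX2), -0.591 to 1.707 (IFITM1) and -0.127 to 0.862 (IFI35), the MCF10CA1h against the MCF10A control -0.331 to 0.126 (MX2), and the MCF10CA1h against the MCF10AT1 control -0.259 to 0.001 (MX2) and -0.395 to 0.261 (IFI44L). The difference between MCF10AT1 and MCF10A ran from -0.121 to 1.203 (MX1) and -0.582 to 0.377 (MX2), that between MCF10CA1h and MCF10A from -0.275 to 0.72 (IFITM2), and that between MCF10CA1h and MCF10AT1 from -0.606 to 0.042 (IFITM2) and -0.694 to 0.034 (IFITM3). The cause was not tested.

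Equal sums moved the median log2 fold change of all genes from 0.02 to -0.15 in MCF10AT1, from -0.01 to -0.15 between the MCF10AT1 and MCF10A controls, from 0.05 to 0.16 between the MCF10CA1h and MCF10AT1 controls and, for the differences, from 0.00 to -0.26 (MCF10AT1 against MCF10A), -0.03 to -0.17 (MCF10CA1h against MCF10A) and -0.01 to 0.10 (MCF10CA1h against MCF10AT1). The share of higher genes among all called went from 62.0% to 50.2% in MCF10CA1h and from 51.6% to 39.6% and 68.3% to 58.5% in those differences. The number of reads behind a value is unknown, RSAD2 was under the filter in MCF10A and MCF10AT1, and the p-values rest on 3 libraries of 1 CRISPR line a group.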
